A study of Mus musculus with 6 samples.

Results

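The genes described here encode the machinery that copies DNA in S phase, together with enzymes that make deoxynucleotides, copy chromatin and DNA methylation, and repair forks that stall. They were chosen by name as a set of 53 genes, from Mcm2 to Pif1, and all 53 were found among the 25711 entries of the deposited table. RNA was sequenced from wild-type mouse macrophages that had been derived from marrow in culture. Of the 6 libraries, 3 came from macrophages kept with CCL7, a chemokine, at 500 ng/ml for 24 h, and 3 from control macrophages at 24 h. No label gives the animals or cultures behind the replicates, and the p-values therefore rest on a spread that may be technical. The series sets out to relate CCL7 to macrophage polarization and rheumatoid arthritis.

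A chromosome is copied from many origins. The origin recognition complex, Cdc6 and Cdt1 load the MCM2-7 ring onto DNA in G1, and geminin (Gmnn) holds Cdt1 back once S phase has begun. The kinase Cdc7 with Dbf4, together with Mcm10, Cdc45 and GINS, turns the ring into an active helicase. Polymerase alpha-primase then starts each strand, polymerases epsilon and delta extend it on the PCNA clamp, and Fen1 and Lig1 join the lagging-strand pieces. Most of these genes are targets of E2F factors and are expressed in dividing cells. Marrow-derived macrophages divide in response to the growth factor M-CSF, and inflammatory stimuli are known to stop that division.

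Nearly all of the replication genes were lower with CCL7. Of the 53 members 52 fell, 0 rose and 1, Pold3, did not pass (edgeR's quasi-likelihood test on counts, Benjamini-Hochberg adjusted p under 0.05 over 11143 genes). No member had a log2 change above 0, whether in edgeR, DESeq2 or limma. Of all genes tested 35.2% fell and 33.9% rose. At least a 2-fold fall was called at 42 members, against 8.69% of all genes, and 12 of these were at least 4-fold. The median log2 change, CCL7 over control, was -1.36 over the members and -0.01 over all genes. Single values ran from -5.09 ± 0.38 for Pif1 to -0.08 ± 0.05 for Pold3 (SE, n = 3 per group here and below). The 3 CCL7 libraries lay below all 3 control libraries at 52 members, as they did at 37.8% of all genes. The 53 members took 0.142%, 0.134% and 0.136% of all counts in the CCL7 libraries, against 0.428%, 0.414% and 0.398% in the control libraries. In whole-culture RNA, fewer dividing cells and less of these RNAs per dividing cell cannot be told apart.

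**Figure D1:**
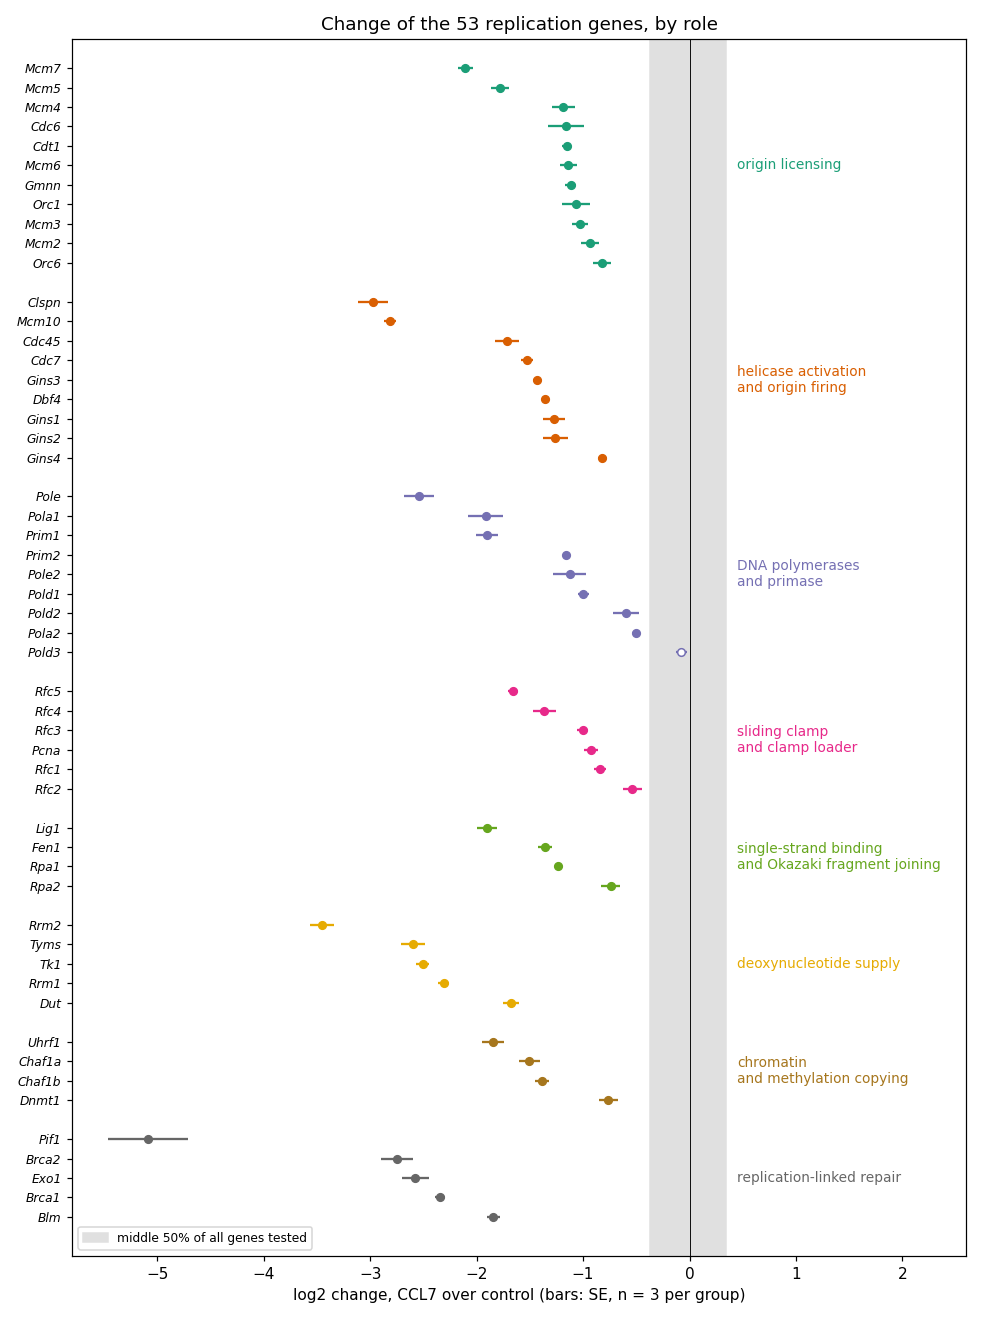
Log2 change of each of the 53 genes, CCL7 over control, grouped by role; points are edgeR estimates, bars the SE over 3 libraries per group, and the open point did not pass the test. All points lie left of 0, 52 of them past the threshold, and the grey band is the middle 50% of the 11143 genes tested (-0.37 to 0.34).

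The libraries held 51161400, 44108480 and 43289351 counts with CCL7 and 35585786, 44561204 and 34860523 in control. All 8 macrophage markers were tested: 6 rose, Cd68 fell and Mertk did not pass (with the deposited totals 2 fell, Mertk among them), and their summed level was 22275 to 24106 FPKM with CCL7 and 9839 to 10339 FPKM in control. Of the 7 myeloid progenitor markers analysed, Cd34 stood at 0.0726, 0.0204 and 0.0445 in the CCL7 libraries, against 3.75, 3.54 and 3.44 in the control libraries and Kit at 0.140, 0.0947 and 0.0869 in the CCL7 libraries, against 1.36, 1.43 and 1.36 in the control libraries. Their summed level, mostly from Cd34 and Kit, was 0.159 to 0.261 with CCL7 and 4.86 to 5.20 in control. Elane and Flt3 were at 0 in every CCL7 library and at most 0.0525 in a control library, each from 2 counts in control replicate 1 alone. For Ctsg, Prtn3 and Myb the groups overlapped, with levels of at most 0.048. Neutrophil markers summed to 15.3 to 23.0 with CCL7 and 1.08 to 1.42 in control, of which S100a8 was the bulk. Camp, too low to be tested, had 1.51, 2.09 and 1.32 in the CCL7 libraries, against 0, 0.164 and 0.139 in the control libraries. S100a9 was found in CCL7 replicate 1 alone (10 counts) and Cxcr2 in control replicates 1 and 3 alone (4 counts each). Ly6g reached 0.0449 at most. Chondrocyte and stromal markers summed to 0.175 at most in any library. The part of these markers in the fall of the replication genes was not tested.

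Levels below are FPKM, counts scaled to gene length and library total, rescaled with the TMM factors of the test so that levels and log2 changes share 1 scale, and they are given for replicates 1, 2 and 3 of a group in that order. Control levels ranged from 1.68 (Orc1) to 193 (Pcna), with a median of 9.09, and CCL7 levels from 0.104 (Pif1) to 101 (Pcna), with a median of 3.35. The coefficient of variation between libraries of a group had a median of 6.23% over the members with CCL7 and 4.81% in control. Across the 53 genes the control level and the log2 change were weakly related (Pearson's r = 0.18, Spearman's rho = 0.21). The genes share their libraries and are not independent replicates.

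**Figure D2:**
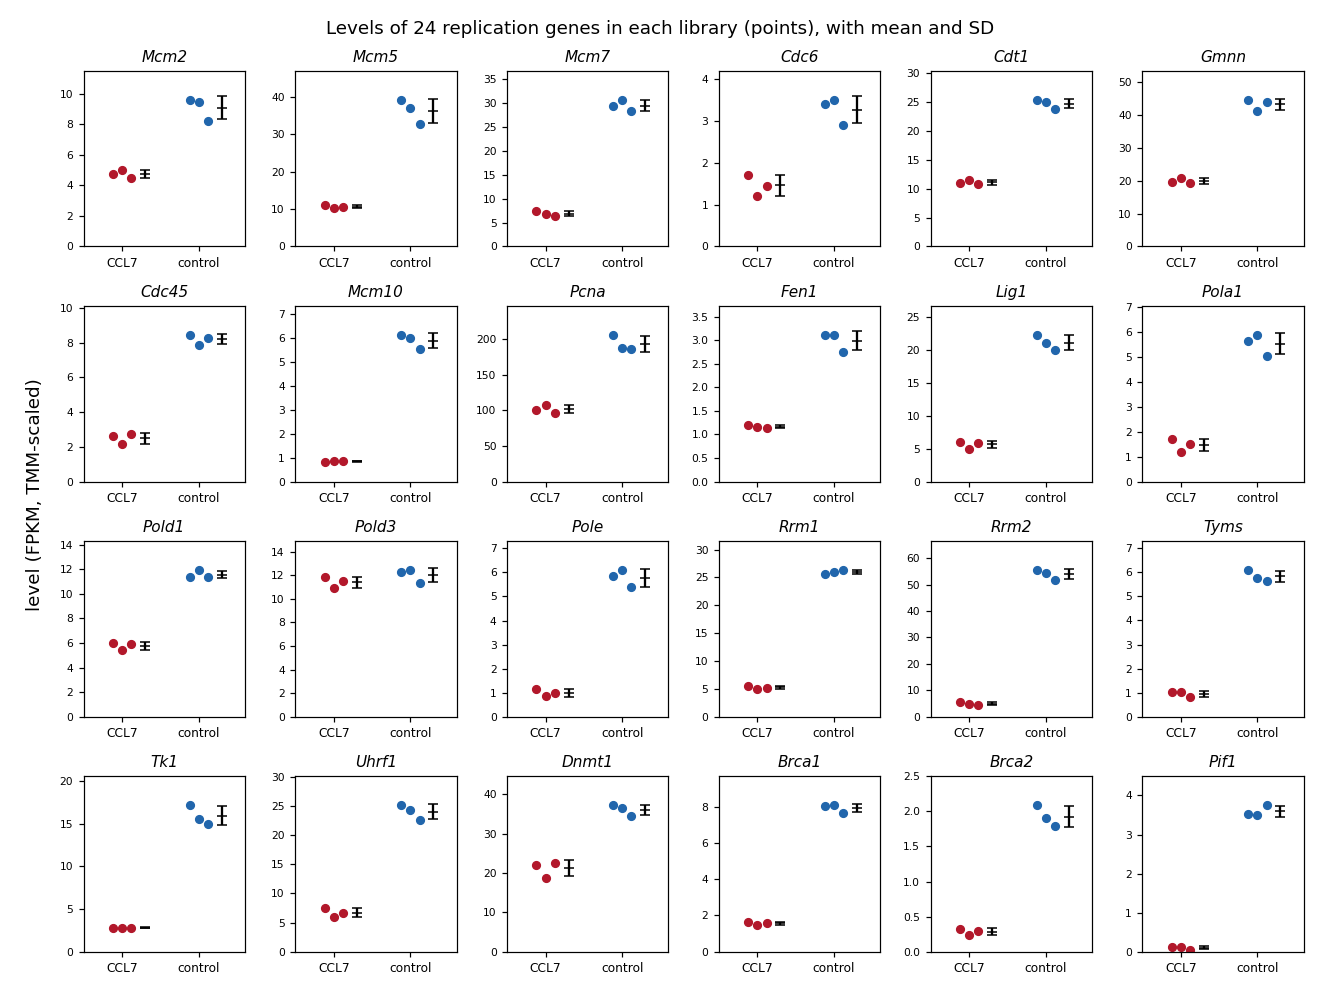
Level (FPKM, TMM-scaled, linear axis from 0) of 24 genes in each of the 3 CCL7 and 3 control libraries; points are libraries, with mean and SD beside them. The groups are apart in every panel but that of Pold3, where they overlap.

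All 11 licensing genes fell, with a median log2 change of -1.14. The MCM2-7 ring is the core of the helicase, and the size of the fall varied over its subunits. Mcm7 fell most, with 7.37, 6.71 and 6.41 in the CCL7 libraries, against 29.4, 30.6 and 28.2 in the control libraries, which is a fall by 2.10 ± 0.07 on the log2 scale (edgeR adjusted p = 6.50e-10), to 23.3% of control. The gene lies on GRCm38 at chromosome 5, 138164583 to 138172422, minus strand. Mcm5 had levels of 10.9, 10.2 and 10.5 in the CCL7 libraries, against 39.1, 36.9 and 32.6 in the control libraries and fell by 1.78 ± 0.08. Mcm2 had levels of 4.75, 5.00 and 4.51 in the CCL7 libraries, against 9.59, 9.45 and 8.24 in the control libraries and fell by 0.94 ± 0.08, the smallest change in the ring. For each of these subunits the CCL7 libraries all lay below the control libraries. Mcm4 (-1.19 ± 0.11), Mcm6 (-1.14 ± 0.08) and Mcm3 (-1.03 ± 0.08) lay between them. In each of the 6 libraries Mcm6 was the highest and Mcm2 the lowest of the ring per length, 3.96 to 4.48 times apart with CCL7 and 4.70 to 4.94 times apart in control. The order in the middle differed: Mcm7 stood at 0.688, 0.782 and 0.628 times the level of Mcm4 in the CCL7 libraries, against 1.25, 1.36 and 1.33 times in the control libraries, a pair chosen after its values were seen and not tested.

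Cdt1, the MCM loader, stood at 11.001, 11.5 and 10.8 in the CCL7 libraries, against 25.4, 24.975 and 23.8 in the control libraries (-1.16 ± 0.04, edgeR adjusted p = 1.43e-08). Geminin, which binds and blocks Cdt1, stood at 19.7, 20.9 and 19.2 in the CCL7 libraries, against 44.5, 41.2 and 43.9 in the control libraries (-1.12 ± 0.05, edgeR adjusted p = 3.89e-08). The ratio of Cdt1 to Gmnn within a library, which does not depend on library scaling, was 0.558, 0.550 and 0.562 with CCL7 and 0.569, 0.606 and 0.543 in control. It differed by -0.04 ± 0.05 on the log2 scale (SE, n = 3 per group, 2-sided exact permutation p = 0.6), and its groups overlapped. Taken singly, neither gene had overlapping groups. Cdc6, the ATPase that brings MCM2-7 to the origin, had 1.72, 1.21 and 1.44 in the CCL7 libraries, against 3.41, 3.49 and 2.90 in the control libraries and fell by 1.16 ± 0.17. Of the origin recognition complex, Orc6 had 5.10, 5.38 and 4.51 in the CCL7 libraries, against 9.32, 8.58 and 8.58 in the control libraries and fell least of the licensing genes (-0.82 ± 0.08, edgeR adjusted p = 6.87e-06), and Orc1 changed by -1.07 ± 0.13. Of the exon bases of Orc6 6.93% are shared on the opposite strand with Vps35, which had 12213 to 16025 counts, against 446 to 1024 for Orc6. On the opposite strand Orc1 shares 10.8% with Gm12743 (40 to 69 counts). Mcm7 shares 7.25% with Ap4m1 (522 to 1013 counts) and 1.45% with Cops6 (2395 to 3920 counts), also on the opposite strand. The subunits Orc2 (0.07 ± 0.06), Orc3 (-0.03 ± 0.06) and Orc5 (-0.15 ± 0.08), which are not members, did not pass, and Orc4 rose (0.29 ± 0.05). With the deposited totals Orc2 (-0.17), Orc3 (-0.26) and Orc5 (-0.39) were called lower and Orc4 (0.05) did not pass.

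All 9 genes grouped here under helicase activation and origin firing fell, with a median of -1.43. Clspn, which encodes claspin, the adaptor that carries the fork checkpoint signal to Chk1, had 1.86, 1.36 and 1.43 in the CCL7 libraries, against 12.8, 11.8 and 12.024 in the control libraries. It fell by 2.97 ± 0.14 (edgeR adjusted p = 1.86e-09), to 12.7% of control. Mcm10, which helps start the assembled helicase, had 0.801, 0.855 and 0.863 in the CCL7 libraries, against 6.12, 6.01 and 5.55 in the control libraries. It fell by 2.81 ± 0.06, or by 2.06 with limma on log2(FPKM + 1). Cdc45, a subunit of the active helicase, had 2.61, 2.14 and 2.73 in the CCL7 libraries, against 8.43, 7.87 and 8.26 in the control libraries and fell by 1.71 ± 0.11. None of these genes had a CCL7 library as high as a control library. The kinase genes Cdc7 (-1.53 ± 0.06) and Dbf4 (-1.36 ± 0.03) fell to a like extent. Of the 4 GINS subunits, Gins3 (-1.43 ± 0.04), Gins1 (-1.27 ± 0.10) and Gins2 (-1.26 ± 0.12) fell by more than Gins4. Gins4 had 17.7, 18.2 and 17.5 in the CCL7 libraries, against 32.6, 29.6 and 32.0 in the control libraries (-0.82 ± 0.05) and was the most abundant of the 4 in every library. On GRCm38, 67.3% of the exon bases of Gins2 are shared with Gse1 on the opposite strand, and whether counting used strand is not given in the sources used here. Gse1 had 1464, 914 and 1335 counts with CCL7 and 1228, 1524 and 1197 in control, in every library more than Gins2. Gins2 had 447, 442 and 334 counts with CCL7 and 884, 1075 and 901 in control. Cdc45 shares 5.96% of its exon bases with Ufd1 on the opposite strand, which had 2177 to 2972 counts.

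Of 9 polymerase and primase members 8 fell, 0 rose and 1 did not pass, with a median of -1.13. Pole, the catalytic subunit of leading-strand polymerase epsilon, had 1.15, 0.840 and 0.975 in the CCL7 libraries, against 5.84, 6.09 and 5.38 in the control libraries. On GRCm38 it lies at chromosome 5, 110286306 to 110337474, plus strand. It fell by 2.54 ± 0.14 (edgeR adjusted p = 5.97e-09), to 17.2% of control, or by 1.93 with limma on log2(FPKM + 1). Pola1, the catalytic subunit of polymerase alpha, had 1.68, 1.19 and 1.504 in the CCL7 libraries, against 5.64, 5.86 and 5.04 in the control libraries and fell by 1.91 ± 0.16. Pold1, the catalytic subunit of lagging-strand polymerase delta, had 5.97, 5.41 and 5.94 in the CCL7 libraries, against 11.4, 11.9 and 11.4 in the control libraries and fell by 1.0 ± 0.05. In these 3 catalytic subunits the groups were well apart. The primase subunits Prim1 (-1.90 ± 0.10) and Prim2 (-1.16 ± 0.03) fell, as did the accessory subunits Pole2 (-1.13 ± 0.16), Pold2 (-0.60 ± 0.12) and Pola2 (-0.50 ± 0.04). Pole2 shares 8.50% of its exon bases with Gm49384 on the same strand, which has no counts of its own here. Pold3, an accessory subunit of polymerase delta that also acts in repair synthesis, had 11.8, 10.9 and 11.5 in the CCL7 libraries, against 12.3, 12.4 and 11.4 in the control libraries. It lies on GRCm38 at chromosome 7, 100082111 to 100121565, minus strand. Its groups overlapped and it did not pass (-0.08 ± 0.05, edgeR adjusted p = 0.254). With the deposited library totals in place of TMM it was called lower (-0.31, edgeR adjusted p = 6.38e-04), and over 16 alternatives its log2 change ran from -0.31 to -0.02.

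The order of subunits by level per length differed between the groups in polymerases epsilon and alpha. Pole stood at 0.606, 0.533 and 0.691 times the level of Pole2 in the CCL7 libraries, against 1.52, 1.62 and 1.74 times in the control libraries. Prim1 was the highest of the polymerase alpha-primase subunits in the 3 control libraries, and Pola2 in the 3 CCL7 libraries. Pola1 stood at 0.414, 0.280 and 0.385 times the level of Pola2 with CCL7 and 0.968, 0.998 and 0.8999 times in control. Pold1 stood at 0.505, 0.496 and 0.516 times the level of Pold3 with CCL7 and 0.927, 0.958 and 0.999 times in control. These pairs were chosen after their values were seen and were not tested, and each is a ratio of levels per length within a library.

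**Figure D3:**
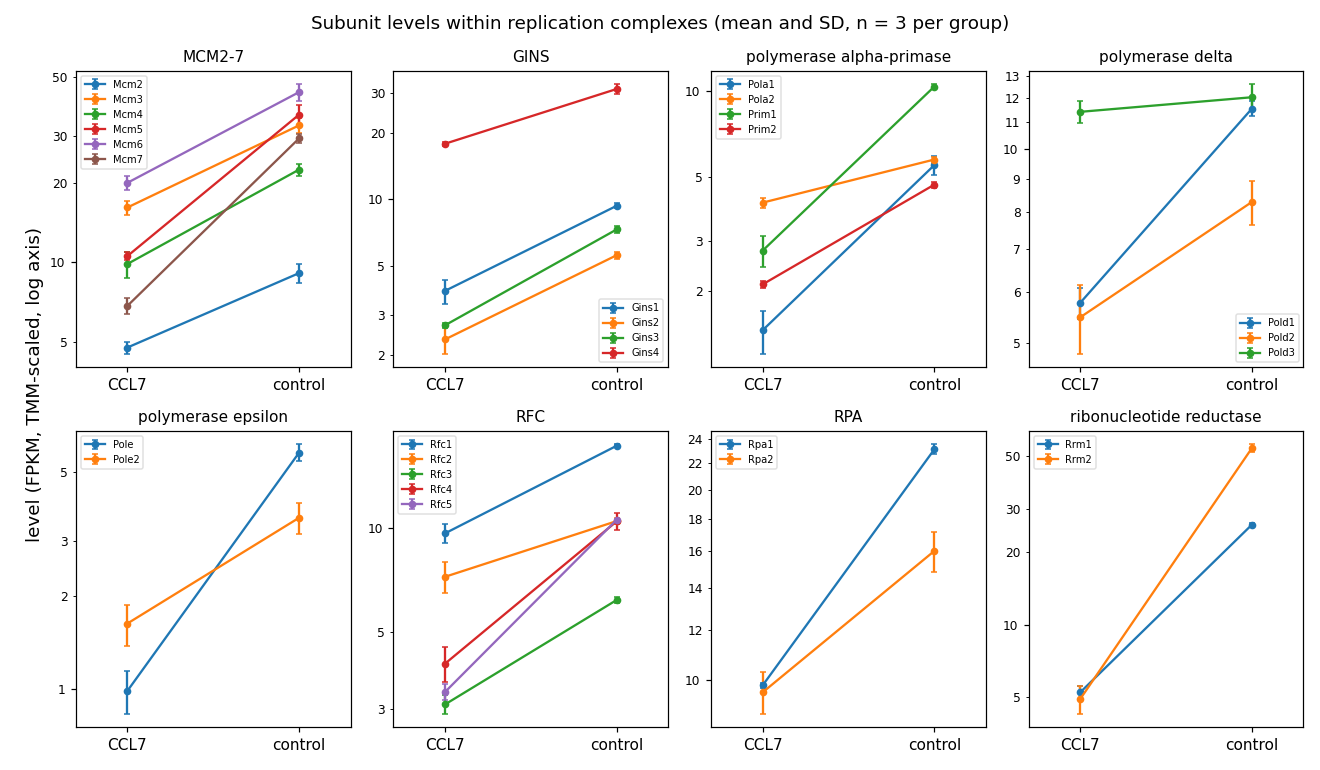
Mean level (FPKM, TMM-scaled, log axis) of each subunit in the CCL7 and control groups for 8 replication complexes, with SD over 3 libraries; lines join the 2 means of a subunit. Lines cross, among others, for Pole and Pole2, for Mcm7 and Mcm4, and for Rrm2 and Rrm1.

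Pcna, the sliding clamp that holds polymerases on DNA, was the most abundant member. It had 100.043, 108 and 96.4 in the CCL7 libraries, against 205, 187 and 186 in the control libraries and fell by 0.93 ± 0.07 (edgeR adjusted p = 2.24e-07), to 52.5% of control. Its share of the summed level of the 53 genes averaged 26.3% with CCL7 and 20.8% in control. The processed pseudogene Pcna-ps2 had 68, 48 and 95 counts with CCL7 and 107, 121 and 97 counts in control, few beside the 9268 counts or more of Pcna itself. Every CCL7 library was lower in Pcna than every control library. The clamp loader RFC opens PCNA around DNA, and all 5 of its genes fell. Rfc5 had 3.16, 3.38 and 3.52 in the CCL7 libraries, against 10.6, 10.6 and 10.5 in the control libraries and fell most (-1.66 ± 0.05), followed by Rfc4 (-1.37 ± 0.11) and Rfc3 (-1.0 ± 0.05). Rfc1, the large subunit, fell by 0.84 ± 0.05 and was the highest of the 5 in every library. Rfc2 had 6.36, 7.66 and 7.65 in the CCL7 libraries, against 10.7, 10.4 and 10.3 in the control libraries and fell least (-0.54 ± 0.09, edgeR adjusted p = 7.77e-05), with CCL7 replicate 1 the lowest. The groups of all 5 were apart. Rfc2, Rfc4 and Rfc5 share 15.1%, 12.7% and 10.7% of their exon bases with Lat2, Eif4a2 and Wsb2, each on the opposite strand. Lat2 had 4483 to 6614 counts, Eif4a2 6547 to 9279 and Wsb2 4120 to 7143, in every library more than the member it overlaps.

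All 4 genes that coat single strands or finish the lagging strand fell. Lig1, the ligase that seals Okazaki fragments, had 6.06, 5.02 and 5.86 in the CCL7 libraries, against 22.3, 21.1 and 20.1 in the control libraries and fell by 1.90 ± 0.09 (edgeR adjusted p = 5.87e-09). Fen1, the flap endonuclease that trims them, had 1.21, 1.16 and 1.13 in the CCL7 libraries, against 3.11, 3.11 and 2.76 in the control libraries and fell by 1.36 ± 0.06. It had 110 to 138 counts in the CCL7 libraries and 253 to 364 in the control libraries. Of its exon bases 78.8% are shared on the opposite strand with Gm10143, which had 14, 11 and 17 counts with CCL7 and 31, 19 and 16 in control, so reads from the pair may not be told apart. A further 5.37% are shared on the opposite strand with Tmem258, which had 1928, 2029 and 1945 counts with CCL7 and 1336, 1650 and 1234 in control. Lig1 shares 5.79% of its exon bases with Zswim9 on the opposite strand, which had 278 to 390 counts. The large RPA subunit gene Rpa1 fell by 1.24 ± 0.02. Rpa2, the middle subunit, had 9.56, 10.3 and 8.85 in the CCL7 libraries, against 17.1, 16.1 and 14.8 in the control libraries and fell by 0.74 ± 0.09. The groups did not overlap for any of the 4 genes.

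Genes that supply deoxynucleotides were among the deepest falls, and each of the 5 fell more than 2-fold (median -2.51). Rrm2, the small subunit of ribonucleotide reductase that limits its activity in S phase, had 5.65, 4.70 and 4.40 in the CCL7 libraries, against 55.5, 54.5 and 51.9 in the control libraries. On GRCm38 it lies at chromosome 12, 24708241 to 24714146, plus strand. It fell by 3.45 ± 0.11 (edgeR adjusted p = 1.81e-10), to 9.14% of control. Rrm1, the large subunit of the same enzyme, had 5.60, 5.04 and 5.08 in the CCL7 libraries, against 25.6, 26.0 and 26.3 in the control libraries and fell by 2.31 ± 0.05. Rrm2 therefore stood at 1.01, 0.933 and 0.866 times the level of Rrm1 with CCL7 and 2.17, 2.09 and 1.98 times in control. CCL7 and control libraries were far apart in both subunits. Tyms, thymidylate synthase, had 1.05, 1.01 and 0.820 in the CCL7 libraries, against 6.09, 5.77 and 5.64 in the control libraries and fell by 2.601 ± 0.11, or by 1.96 with limma on log2(FPKM + 1). Tk1, the thymidine kinase of dividing cells, had 2.81, 2.83 and 2.74 in the CCL7 libraries, against 17.1, 15.6 and 15.0 in the control libraries and fell by 2.51 ± 0.06. Dut, which clears dUTP so that uracil stays out of DNA, had 2.66, 2.59 and 2.48 in the CCL7 libraries, against 9.01, 7.84 and 7.93 in the control libraries and fell by 1.68 ± 0.07. In these 3 genes too, the highest CCL7 library was below the lowest control library.

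Genes of the same enzyme families that are known to work outside S phase were set beside them. Rrm2b, the small reductase subunit used by resting cells, had 1.53, 1.32 and 1.35 in the CCL7 libraries, against 1.45, 1.45 and 1.59 in the control libraries and did not pass (-0.09 ± 0.08, edgeR adjusted p = 0.348). With the deposited totals Rrm2b was called lower (-0.33, edgeR adjusted p = 0.00527). The ratio of Rrm2 to Rrm2b within a library was 3.69, 3.57 and 3.25 with CCL7 and 38.2, 37.5 and 32.7 in control, a log2 difference of -3.37 ± 0.09 (SE). Tk2, the mitochondrial thymidine kinase, had 6.09, 6.30 and 5.93 in the CCL7 libraries, against 7.82, 8.40 and 8.76 in the control libraries and fell by 0.45 ± 0.05. The Tk1 to Tk2 ratio was 0.462, 0.4499 and 0.462 with CCL7 and 2.19, 1.85 and 1.71 in control, a log2 difference of -2.06 ± 0.11. Lig3, the ligase of mitochondrial DNA and single-strand break repair, had 3.14, 2.29 and 3.26 in the CCL7 libraries, against 2.53, 2.48 and 2.51 in the control libraries and did not pass (0.21 ± 0.16). The Lig1 to Lig3 ratio was 1.93, 2.20 and 1.80 with CCL7 and 8.81, 8.47 and 7.99 in control, a log2 difference of -2.10 ± 0.09. For each of these 3 ratios the groups did not overlap and the 2-sided exact permutation p was 0.1, the smallest that 3 against 3 libraries allow, or 0.125 adjusted over the 5 ratios computed.

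Of the pair of DNA methyltransferase genes both fell. Dnmt1, the methyltransferase that copies CpG methylation onto new DNA, had 22.1, 18.9 and 22.6 in the CCL7 libraries, against 37.1, 36.4 and 34.4 in the control libraries. It fell by 0.76 ± 0.09 (edgeR adjusted p = 4.11e-06), to 58.9% of control. Dnmt3a, which methylates DNA anew, had 7.36, 6.45 and 7.37 in the CCL7 libraries, against 13.8, 13.0 and 13.1 in the control libraries and fell by 0.92 ± 0.07. The Dnmt1 to Dnmt3a ratio was 3.01, 2.92 and 3.06 with CCL7 and 2.68, 2.80 and 2.62 in control, a log2 difference of 0.15 ± 0.03 (2-sided exact permutation p = 0.1, adjusted 0.125). Uhrf1, which recruits Dnmt1 to hemimethylated CpGs behind the fork, had 7.45, 5.93 and 6.64 in the CCL7 libraries, against 25.1, 24.3 and 22.6 in the control libraries and fell further than Dnmt1 (-1.85 ± 0.10). The histone chaperone subunits Chaf1a (-1.505 ± 0.10) and Chaf1b (-1.39 ± 0.07), which place histones on new DNA, fell together. Of the exon bases of Chaf1a 52.5% are shared on the opposite strand with Ubxn6, which had 689, 653 and 693 counts with CCL7 and 494, 651 and 463 in control.

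All 5 repair genes fell, with a median of -2.57. Pif1, a helicase known for unwinding G-quadruplexes, had 0.130, 0.124 and 0.0569 in the CCL7 libraries, against 3.53, 3.51 and 3.75 in the control libraries. On GRCm38 it lies at chromosome 9, 65587160 to 65595967, plus strand. It fell by 5.09 ± 0.38 (edgeR adjusted p = 2.70e-09), to 2.94% of control, and ranked 11th from the most negative of the 11143 genes. With limma on log2(FPKM + 1), whose pseudocount shrinks changes at low levels, the log2 change of Pif1 was -2.16, and with a pseudocount of 0.1 it was -4.37. Both limma values use the deposited totals, with which edgeR gave -5.32 for Pif1. The size rests on few counts, 27, 22 and 10 with CCL7, against 599, 744 and 622 in control. Brca1, which directs homologous recombination and protects stalled forks, had 1.63, 1.48 and 1.58 in the CCL7 libraries, against 8.03, 8.06 and 7.67 in the control libraries and fell by 2.34 ± 0.05. Brca2, which acts in homologous recombination, fell by 2.75 ± 0.15, with levels of 0.329, 0.236 and 0.291 with CCL7 and 2.08, 1.90 and 1.80 in control. The groups were apart in each of these genes. The exonuclease gene Exo1 fell by 2.57 ± 0.12. Blm, the helicase that is mutated in Bloom syndrome, had 0.818, 0.732 and 0.802 in the CCL7 libraries, against 2.92, 2.73 and 2.79 in the control libraries and fell least of the 5 (-1.84 ± 0.06). With limma on log2(FPKM + 1) the log2 changes were -1.29 for Brca2, -1.30 for Exo1 and -1.24 for Blm.

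Promoters of the members were read for E2F sites. The members were chosen by name as replication genes, most of which are E2F targets. Their share of sites is therefore tied to that choice and is no result of CCL7. RefSeq windows of 300 bases around the transcription start (GRCm38.p6) were matched by symbol for 43 of the 53 members. An E2F site was taken as TTTGGCGC, TTTCGCGC, TTTCCCGC or TTTGCCGC on either strand, where neighbouring sites may overlap. It was found at 18 of the 43 members (41.9%), against 412 of 8205 tested genes with a window (5.02%) and 2.61% of all 27025 genes with one. A gene with several windows counted if any of them held a site. The median GC content was 60.7% over the 52 windows of members and 60.7% over the 10419 windows of tested genes. The CHR element TTTGAA was found at 8 of the 43 (18.6%), against 14.5% of tested genes, and CCAAT at 26 (60.5%), against 43.2%. Members with an E2F match had a median log2 change of -1.16 and the 25 without one -1.505. The changes ran from -2.97 to -0.08 with a match and from -3.45 to -0.50 without one, and the difference was not tested. Among the members without one were deep falls (Rrm2, Mcm10, Tyms, Tk1, Brca1 and Rrm1) and small ones. The small ones included Pola2 (-0.50), Pold2 (-0.60) and Rpa2 (-0.74). A match is a run of letters and does not show binding, and sites spelled otherwise were not searched for.

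The windows of the 6 members that fell most among those with a match are printed in order of their change, to show where the letters lie in a window, followed by that of Pold3, which holds a match too and did not pass. Each is read 5′ to 3′ on the strand of its gene, with E2F matches in capitals. They lie at chr4:126556730-126557029 (plus strand), chr5:150522371-150522670 (plus strand), chr5:138171834-138172133 (minus strand), chrX:93632106-93632405 (minus strand), chr7:13278576-13278875 (plus strand), chr17:56304063-56304362 (plus strand) and chr7:100121453-100121752 (minus strand).
Clspn: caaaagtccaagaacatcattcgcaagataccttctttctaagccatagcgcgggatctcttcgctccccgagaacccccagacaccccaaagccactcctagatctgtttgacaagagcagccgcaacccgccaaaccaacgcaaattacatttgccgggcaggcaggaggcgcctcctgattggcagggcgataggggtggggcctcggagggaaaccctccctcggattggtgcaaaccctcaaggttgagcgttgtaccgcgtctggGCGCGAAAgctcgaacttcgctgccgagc
Brca2: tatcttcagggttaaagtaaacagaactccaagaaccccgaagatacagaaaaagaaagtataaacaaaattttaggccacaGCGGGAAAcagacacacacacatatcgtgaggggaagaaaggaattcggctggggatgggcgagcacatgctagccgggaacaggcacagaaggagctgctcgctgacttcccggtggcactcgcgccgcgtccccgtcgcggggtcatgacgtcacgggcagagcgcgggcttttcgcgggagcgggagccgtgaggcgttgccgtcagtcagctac
Mcm7: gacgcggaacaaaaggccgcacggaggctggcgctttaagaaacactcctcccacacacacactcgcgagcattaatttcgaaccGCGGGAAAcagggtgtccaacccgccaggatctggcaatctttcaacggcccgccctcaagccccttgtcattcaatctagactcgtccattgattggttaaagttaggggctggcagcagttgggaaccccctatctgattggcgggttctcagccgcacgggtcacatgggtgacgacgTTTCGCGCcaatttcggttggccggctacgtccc
Pola1: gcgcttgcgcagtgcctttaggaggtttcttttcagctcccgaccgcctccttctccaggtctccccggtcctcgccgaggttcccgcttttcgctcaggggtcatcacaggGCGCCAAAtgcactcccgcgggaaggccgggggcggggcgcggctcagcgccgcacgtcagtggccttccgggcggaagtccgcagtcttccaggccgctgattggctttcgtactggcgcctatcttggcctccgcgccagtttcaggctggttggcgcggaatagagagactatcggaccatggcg
Lig1: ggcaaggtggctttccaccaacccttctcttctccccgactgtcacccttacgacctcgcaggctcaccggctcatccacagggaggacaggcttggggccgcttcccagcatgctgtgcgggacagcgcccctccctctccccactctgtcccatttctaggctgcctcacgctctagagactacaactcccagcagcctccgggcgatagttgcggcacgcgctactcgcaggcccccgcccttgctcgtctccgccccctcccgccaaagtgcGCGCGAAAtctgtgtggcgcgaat
Uhrf1: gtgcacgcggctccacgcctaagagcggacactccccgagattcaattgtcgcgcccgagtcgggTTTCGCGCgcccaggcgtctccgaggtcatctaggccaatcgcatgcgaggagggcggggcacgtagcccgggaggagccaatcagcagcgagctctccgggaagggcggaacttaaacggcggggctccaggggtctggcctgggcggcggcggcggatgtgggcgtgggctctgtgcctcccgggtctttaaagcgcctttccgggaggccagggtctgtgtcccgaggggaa
Pold3: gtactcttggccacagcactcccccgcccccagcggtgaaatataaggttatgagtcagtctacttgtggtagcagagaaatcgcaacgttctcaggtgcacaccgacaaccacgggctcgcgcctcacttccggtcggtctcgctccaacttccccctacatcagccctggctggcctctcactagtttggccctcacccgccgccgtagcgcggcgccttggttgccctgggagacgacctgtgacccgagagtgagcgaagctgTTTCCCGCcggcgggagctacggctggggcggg
The printed window of Mcm7 holds 2 matches and each of the others 1. Lig1, Mcm7 and Uhrf1 also have windows at other RefSeq starts, which hold no match. Positions refer to the start of the printed window. Matches began at +22 of the RefSeq start in Clspn, -168 in Brca2, -165 and +17 in Mcm7, -138 in Pola1, +27 in Lig1, -185 in Uhrf1 and +18 in Pold3, where the start is +1.

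Other genes of the same processes, from lists that hold no member, fell in most cases. Of 36 tested genes of origins and forks 27 fell, 4 rose and 5 did not pass, with a median of -0.66. Top2a, the topoisomerase that untangles copied DNA, fell by 3.97 ± 0.12 and Ticrr, which brings Cdc45 to origins, by 3.24 ± 0.11. Mcmbp, an MCM-binding protein gene (0.34 ± 0.04), and the origin gene Orc4 (0.29 ± 0.05) rose. With the deposited totals none of the list rose and 31 fell, and Mcmbp (0.11) and Orc4 (0.05) did not pass. Here and below, counts with those totals hold a shift of the whole table, whose median was -0.25, against -0.01 with TMM scaling. Shares of all genes lower or higher with those totals are not given here. Chtf8 and Dscc1 were too low to be tested.

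Of 30 tested genes of replication stress and recombination 27 fell, 1 rose and 2 did not pass, with a median of -1.40. The Fanconi anaemia genes Fancd2 (-3.75 ± 0.16) and Fanci (-3.61 ± 0.06), which act on crosslinked DNA as a pair, fell most. The least change among those past the threshold and lower was in Rad9a (-0.31 ± 0.02), a subunit of the checkpoint clamp. Rad17, a clamp loader of the checkpoint, rose (0.20 ± 0.06, edgeR adjusted p = 0.0160), but was at -0.03 with the deposited totals, where 28 of the list fell and 0 rose. Rmi2 was too low to be tested. Of 10 tested genes of deoxynucleotide metabolism 6 fell, 3 rose and 1 did not pass, with a median of -0.39. With the deposited totals 7 fell, 2 rose and the median was -0.63, and Dck, the deoxycytidine kinase gene, was no longer called higher (-0.05, against 0.19 ± 0.02). Dctd was too low to be tested. Dtymk, the kinase that acts after Tk1 on the way to dTTP, fell by 0.99 ± 0.04. Cmpk2, a mitochondrial nucleotide kinase gene that interferon induces, rose by 1.15 ± 0.12. Samhd1, which degrades deoxynucleotides in cells that do not divide, had 51.8, 53.2 and 52.0 in the CCL7 libraries, against 32.4, 31.0 and 31.6 in the control libraries and rose by 0.72 ± 0.02.

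Of 26 tested repair genes that are not tied to replication, 17 fell, 5 rose and 4 did not pass, with a median of -0.37, or 20 falls and 1 rise with the deposited totals. Ddb2, which recognises ultraviolet damage, fell by 1.28 ± 0.08 and Mgmt, which removes methyl groups from guanine, by 0.92 ± 0.10. Xrcc4, of the end-joining ligase complex, rose by 0.56 ± 0.10, and Ogg1, which removes oxidised guanine, by 0.39 ± 0.09, though Ogg1 did not pass with the deposited totals (0.15). Mutyh, Ung and Xrcc5 were too low to be tested. All 28 genes of a mitosis list fell, with a median of -4.03, led by the kinetochore gene Cenpf (-5.31 ± 0.13) and the cyclin gene Ccnb2 (-5.04 ± 0.13). Of the members 30 fell by less than Incenp, which fell least among these 28 (-1.499 ± 0.04), or did not pass, and 23 fell by more. Incenp lay apart from the next mitosis gene, Aurka (-2.70 ± 0.09), and 22 of the 28 fell by more than every member but Pif1. The difference between the lists was not tested, since their genes were chosen with results of these data known.

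**Figure D4:**
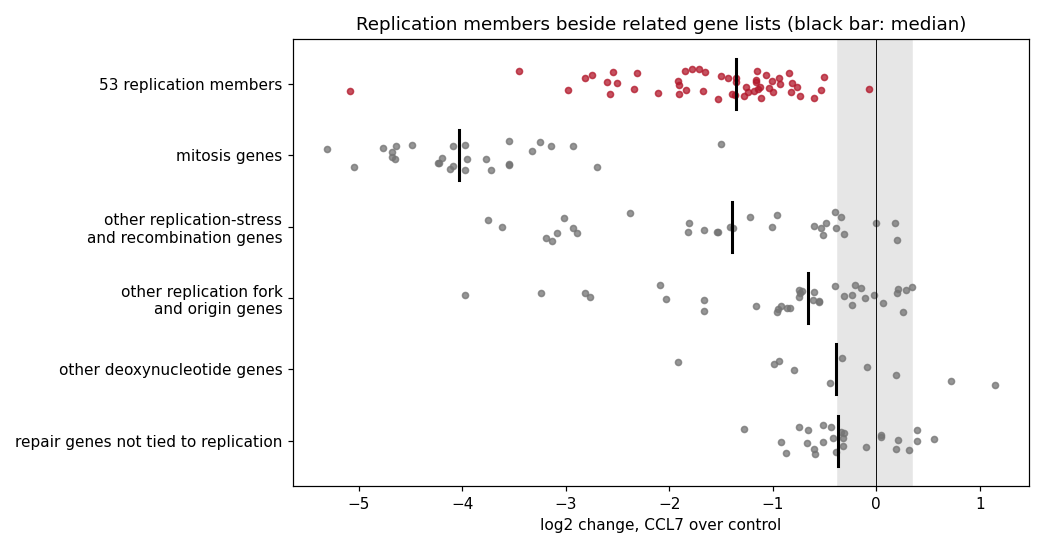
Log2 change, CCL7 over control, of each tested gene (point) in the 53 replication members and 5 related lists, with the median as a black bar and the middle 50% of all genes in grey. Medians are -1.36 for the members, -4.03 for mitosis genes, -1.40 and -0.66 for the other recombination and fork genes, and -0.39 and -0.37 for the last 2 lists.

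Of the 53 members, CCL7 replicate 1 was the highest of its group at 32 and CCL7 replicate 3 the lowest at 28. Control replicate 1 was the highest of its group at 33 and control replicate 3 the lowest at 35. No pair of libraries of a group agreed within counting noise, with chi-square per degree of freedom of 8.23 to 37.1 between CCL7 libraries and 4.33 to 6.11 between control libraries. CCL7 replicate 2 gave the 2 highest of these values, and without it 52 members fell and the median was -1.36.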

How the data were processed

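RNA sequencing of 6 libraries, 3 from macrophages given CCL7 and 3 from control macrophages, was deposited as 1 table. Its counts are whole reads per gene, deposited without normalization, as read from the file headers and the values. Its FPKM values, named so by the authors in the file headers, equal the count divided by a gene length and the library's total. The submitters' processing notes list Bowtie 0.12.2 and, as genome builds, mm8 and mm9, without saying what each was used for. What counted the reads, with which annotation and strand setting, is not given in the sources used here. Gene overlaps come from GENCODE M21 (GRCm38), matched by gene identifier, and promoters from RefSeq (GRCm38.p6).

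The members and lists were chosen with earlier results of these data known. Every member is accounted for, and each library's level is given for the members at both ends of a role group and for a set fixed by name; other lists are named at their 2 ends, except for 1 gene that is not reported here. edgeR 4.0.16 (2-sided quasi-likelihood test by glmQLFit and glmQLFTest) used TMM scaling and no covariate beside group. It took in the 11143 genes whose mean FPKM reached 1, all 53 members among them, with Benjamini-Hochberg adjustment over those genes at a threshold of 0.05. TMM factors were 0.914 to 0.925 with CCL7 and 1.08 to 1.09 in control. Levels are counts per kilobase, with the length implied by the deposited FPKM, divided by the TMM-scaled total of the library. The SE comes from the SDs of log2 CPM after adding 0.5 counts. Ratios within a library were compared by exact permutation over 20 assignments. DESeq2 1.42.0 and limma 3.58.1 served as alternatives, limma on the deposited FPKM without TMM factors. The edgeR step was run on simulated counts in which few genes changed, equally many up and down. Such counts do not test the scaling where changes are as broad as here. Alternatives were other scalings, filters and tests, counts divided by 2, a replicate block and leaving out each library; the scaling of other lists was added after the data had been seen.

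Every entry carried a symbol. Of the markers fixed by name, Mpo, Ngp, Cd3e, Cd3g, Nkg7, Sox9, Hba-a1 and Hbb-bs were not analysed here. The lymphocyte markers left summed to at most 0.139 FPKM in any library and the erythroid markers to at most 0.262 FPKM.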

Additional observations from a re-analysis of the deposited data

How the results depend on the processing

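Of the 53 members, the 52 falls kept their direction and their call under every alternative in which they were tested, and Pold3 was called lower in 5 of 16. The median change of the members moved from -1.36 to -1.60 with the deposited library totals and to -1.56 with limma on log2(FPKM + 0.1), which uses the same totals; the median of all genes moved to -0.25 in both. With a mean FPKM of at least 5, 34 members fell, since only 34 were tested. Leaving out 1 library at a time gave 52 falls each time, a median of -1.39 to -1.33 and 6959 to 8044 genes called, against 7698 with all 6. The other settings gave 52 or 53 falls and 0 rises. With limma on log2(FPKM + 1), 7 low members (Exo1, Mcm10, Pole, Brca2, Tyms, Blm and Pif1) had a fold change, not on the log2 scale, over 1.5 times smaller than in edgeR with TMM. So did Pif1 with a pseudocount of 0.1. Whether the replicate numbers pair the libraries is not given by the labels. Deviations of same-numbered libraries had correlations of -0.08, -0.04 and -0.02, and those of other pairs ran from -0.04 to 0.08. With 3 libraries per group these values cannot decide it. With the replicate block 52 members fell, the median was -1.36 and 7432 genes were called. The Cdt1 to Gmnn difference turned to 0.00211 without control replicate 2 and ran from -0.0771 to 0.00211 without 1 library; the other 4 ratios kept their direction without any 1 library. Length scaling cancels in these differences and tests nothing. Counts divided by 2 and rounded up gave 52 falls. Depth limits Pif1, whose CCL7 libraries held 10 to 27 counts.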
